A study of Arabidopsis thaliana with 6 samples.

Results

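The Calvin cycle and photorespiration genes were read from RNA sequencing counts of the stem base of *Arabidopsis thaliana*. They were 38 loci chosen by their AGI locus codes, out of 33602 loci in the count table: 22 of the Calvin cycle, with its regulators CP12 and the carbonic anhydrases CA1 and CA2, and 16 of photorespiration. All 38 had a symbol or locus entry in the annotation and all 38 passed the filter on low counts. The rule names locus codes and no measured value. The study compared stems of *smxl4 smxl5* double mutants, which its description calls defective in phloem, with stems of wild type. SMXL4 and SMXL5 are related proteins known to promote phloem formation, and the labels name neither the alleles nor the ecotype. In both groups the roots were wild type and had been joined to the shoot by grafting at the seedling stage, and plants were moved from short days to long days of 16 h light and 8 h dark. The groups therefore differed in the genotype above the graft. Each group had 3 libraries of polyadenylated RNA, and each library pooled 3 fragments, 1 cm long, that included the stem base, from plants 15 to 20 cm tall.

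Library totals ran from 21364628 to 49929595 counts. Of 20296 genes tested, 2771 were called lower in *smxl4 smxl5* (13.7%) and 2282 higher (11.2%), where a call means an adjusted p under 0.05 in edgeR's quasi-likelihood test over all genes. Fold changes are log2 of *smxl4 smxl5* over wild type, and their median over all genes tested was 0.02. Levels are CPM, counts per gene relative to the library's total after scaling. *SMXL4* had 13.4, 15.3 and 11.2 CPM in *smxl4 smxl5* and 12.1, 10.2 and 11.1 CPM in wild type, and *SMXL5* had 116, 116 and 82.0 CPM against 112, 97.5 and 99.4 CPM. Neither targeted gene differed past the threshold (edgeR adjusted p = 0.179 and 0.920), and a count over a whole gene does not show whether its transcript is interrupted. The genotype labels are therefore not checked by these counts. The libraries came from whole stem segments, so that fewer green cells and less RNA per green cell cannot be told apart.

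The Calvin cycle fixes CO2 in the chloroplast stroma: Rubisco adds it to ribulose bisphosphate, the product is reduced with energy from the light reactions, and the remaining enzymes rebuild the acceptor. Rubisco also accepts oxygen, and photorespiration recovers the carbon of the resulting phosphoglycolate along a route through chloroplast, peroxisome and mitochondrion, releasing CO2 and ammonia on the way. Green stems carry out both in the chlorenchyma of the cortex, although leaves are the main site.

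In *smxl4 smxl5* 29 of the 38 genes fell, where 13.7% of all genes tested were called lower, 0 rose and 9 did not pass the threshold. The counts were the same without a filter on low counts and with DESeq2 size factors, although without the filter 1 gene lost its call and 1 other gained one. All 38 point estimates were below 0, with a median of -0.65 on the log2 scale beside 0.02 for all genes tested. For 34 of the 38 genes, every *smxl4 smxl5* library was below every wild-type library, as it was for 22% of all genes tested. Summed over the 38 genes, the level was 6582, 7878 and 6736 CPM in *smxl4 smxl5* and 10719, 11637 and 10528 CPM in wild type. These genes thus took 0.711% ± 0.072 of all counts in *smxl4 smxl5* and 1.09% ± 0.059 in wild type (SD, n = 3 in each group). The 2 groups did not overlap in this sum. The median fold change was -0.71 for the 22 Calvin cycle genes, of which 16 fell, and -0.61 for the 16 photorespiration genes, of which 13 fell.

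**Figure D1:**
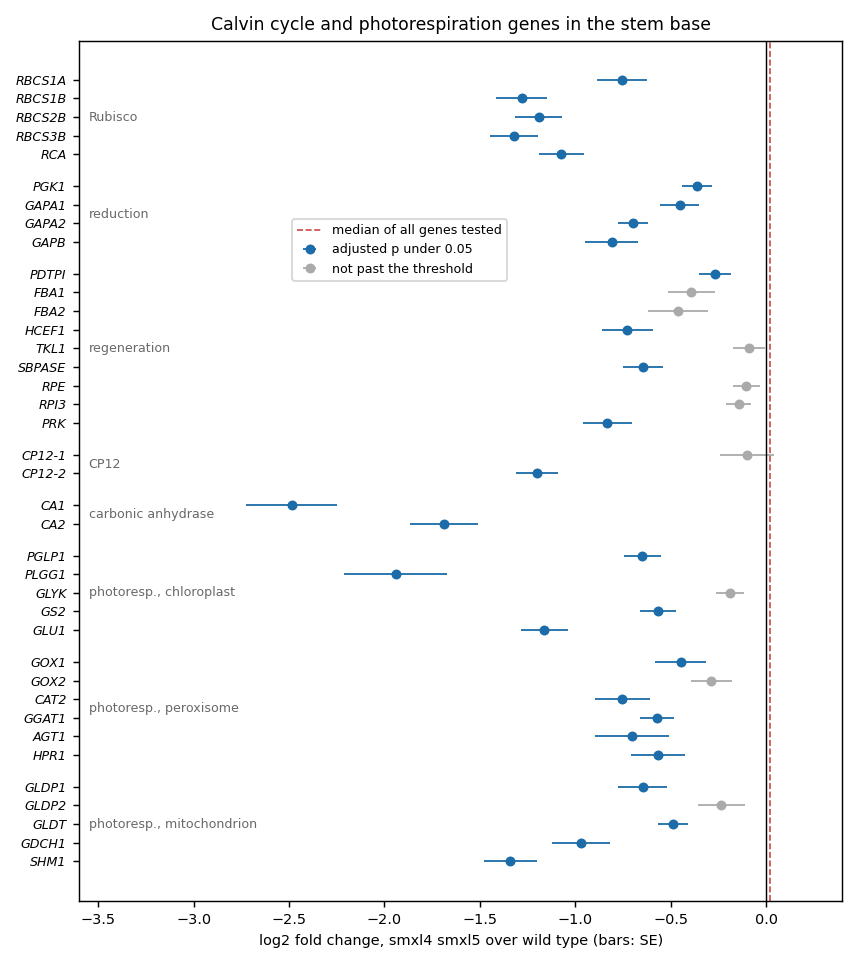
Log2 fold changes of the 38 genes, *smxl4 smxl5* over wild type, with bars for the standard error, ordered by role. Blue points were called at 0.05 by edgeR and grey points were not. The dashed line marks the median of all genes tested. All points lie below 0, *CA1* lowest at -2.49 and *TKL1* highest at -0.09.

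Upstream sequence was searched in the 250 bases before each annotated gene start (RefSeq annotation of TAIR10.1) for 4 motifs on both strands. They were the G-box CACGTG, the I-box GATAAG, the sugar-repressive element TTATCC and the CCAAT box CCAAT, names given to short elements found in promoters of plant light- or sugar-regulated genes or in eukaryotic promoters at large. The I-box and the inverse of the sugar-repressive element share letters, so that GGATAAG holds both. A G-box was present before 5 of the 38 genes (13.2%) and before 6.49% of 27443 promoters searched in the same way. These 5 genes, all called lower, are shown because they share the motif, together with *RCA*, whose window holds the other 3 motifs. The capitals mark every match to any of the 4 motifs.
RBCS2B (chr5:15382072-15382321, minus strand): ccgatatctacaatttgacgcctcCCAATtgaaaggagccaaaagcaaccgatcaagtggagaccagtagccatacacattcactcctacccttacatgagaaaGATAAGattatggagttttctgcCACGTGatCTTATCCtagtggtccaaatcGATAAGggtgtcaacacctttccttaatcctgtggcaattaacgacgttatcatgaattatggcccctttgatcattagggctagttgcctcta
RCA (chr2:16573693-16573942, minus strand): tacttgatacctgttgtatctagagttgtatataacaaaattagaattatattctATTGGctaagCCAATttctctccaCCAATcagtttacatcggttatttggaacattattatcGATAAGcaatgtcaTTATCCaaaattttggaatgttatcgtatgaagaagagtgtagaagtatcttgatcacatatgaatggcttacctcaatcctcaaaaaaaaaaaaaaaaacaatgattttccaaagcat
HCEF1 (chr3:20016587-20016836, plus strand): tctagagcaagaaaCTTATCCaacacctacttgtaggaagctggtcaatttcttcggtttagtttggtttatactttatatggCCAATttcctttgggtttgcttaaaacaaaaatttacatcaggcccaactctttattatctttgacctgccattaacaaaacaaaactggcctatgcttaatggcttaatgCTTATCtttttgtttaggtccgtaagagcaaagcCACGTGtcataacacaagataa
PRK (chr1:11531949-11532198, plus strand): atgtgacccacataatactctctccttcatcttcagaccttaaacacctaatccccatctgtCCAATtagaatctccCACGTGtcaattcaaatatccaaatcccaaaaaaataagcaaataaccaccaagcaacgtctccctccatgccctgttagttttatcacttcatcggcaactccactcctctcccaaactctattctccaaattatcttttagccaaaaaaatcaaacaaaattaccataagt
GGAT1 (chr1:8272022-8272271, minus strand): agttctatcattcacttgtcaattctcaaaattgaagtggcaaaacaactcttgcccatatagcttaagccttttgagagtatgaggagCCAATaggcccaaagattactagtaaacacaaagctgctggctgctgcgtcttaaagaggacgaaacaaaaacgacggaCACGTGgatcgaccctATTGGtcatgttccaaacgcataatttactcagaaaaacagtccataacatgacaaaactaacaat
GLDP1 (chr4:15931423-15931672, minus strand): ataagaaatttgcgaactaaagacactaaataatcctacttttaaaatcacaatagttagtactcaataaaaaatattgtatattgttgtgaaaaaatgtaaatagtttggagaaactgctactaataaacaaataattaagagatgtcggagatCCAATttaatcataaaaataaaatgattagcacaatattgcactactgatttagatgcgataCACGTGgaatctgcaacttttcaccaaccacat
The fold changes of the 5 genes with a G-box ran from -1.19 in *RBCS2B* to -0.57 in *GGAT1*. Within the windows shown, *RBCS2B* and *HCEF1* held all 4 motifs. The I-box was found before 13.2% of the 38 genes and 12.3% of all promoters, the sugar-repressive element before 18.4% and 12.5%, and the CCAAT box before 65.8% and 46.0%. The G-box was before 0 of the 9 genes that were not called, too few windows to compare with 6.49% of all promoters. It was before 15.8% of a list of 38 nuclear genes of the light reactions. The windows of *RBCS1A* and *RBCS1B* held none of the 4 motifs. Each window ends at the outermost annotated gene start, so elements downstream of that start were not searched. An absence from a window is therefore not an absence from the promoter. A match describes the letters of a window and was not tested as a site.

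Among the genes of Rubisco and its activation, all 5 fell. *RBCS1A*, *RBCS1B*, *RBCS2B* and *RBCS3B* encode the small subunit, whose large partner is encoded in the plastid genome. *RBCS1A* (AT1G67090; TAIR10.1 chromosome 1, 25048158 to 25049667) was the most abundant member per length in wild type, at 1875 ± 91.2 CPM per kilobase of exon (SD, n = 3). It had 1245, 1683 and 1299 CPM in *smxl4 smxl5* and 2245, 2441 and 2449 CPM in wild type. All *smxl4 smxl5* values were below all wild-type values, with replicate 2 closest to them, and the log2 fold change was -0.76 ± 0.13 (SE; edgeR adjusted p = 0.00792). *RBCS3B* (AT5G38410; chromosome 5, 15376988 to 15378642) had 194, 224 and 241 CPM against 557, 612 and 477 CPM. Its fall of 1.32 ± 0.12 on the log2 scale was the deepest of the 5 (edgeR adjusted p = 0.00172). *RBCS2B* and *RBCS1B* lie beside *RBCS3B* on chromosome 5, the 3 genes together spanning 15376988 to 15385320. They fell by 1.19 ± 0.12 and 1.28 ± 0.13 (edgeR adjusted p = 0.00246 for each). *RCA* (AT2G39730; chromosome 2, 16570746 to 16573692) encodes Rubisco activase, which frees blocked catalytic sites. It had 427, 554 and 471 CPM in *smxl4 smxl5* and 993, 1109 and 950.4 CPM in wild type, a fall of 1.07 ± 0.12 (edgeR adjusted p = 0.00268).

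The 4 small subunit genes together had between 1637 and 2154 CPM in *smxl4 smxl5* and between 3356 and 3646 CPM in wild type. *RBCS1A* made up 76.1%, 78.2% and 73.0% of these counts in *smxl4 smxl5* and 66.9%, 66.9% and 72.4% in wild type. Its share was higher in every *smxl4 smxl5* library, although wild-type replicate 3 came close to *smxl4 smxl5* replicate 3. On the log2 scale the ratio of *RBCS1A* to *RBCS3B* was 2.67 ± 0.24 in *smxl4 smxl5* and 2.12 ± 0.21 in wild type (SD, n = 3), a difference of 0.55. An exact two-sided permutation test gave p = 0.1 (adjusted p = 0.16 over 8 pairs of member genes), the smallest that 3 libraries against 3 allow. The transcripts of the chromosome 5 genes are near copies: *RBCS3B* matches *RBCS2B* at 94.4% of 656 aligned bases and *RBCS1B* at 91.6% of 754. *RBCS1A* also matches *RBCS2B*, at 90.5% of 549 aligned bases. How reads matching several copies were counted is not given in the sources used here, and the values of single copies are less certain than their sum. The plastid gene *rbcL* of the large subunit, no member of the list, had 9.07, 5.21 and 4.80 CPM in *smxl4 smxl5* and 5.36, 7.21 and 17.6 CPM in wild type. These groups overlapped (log2 fold change -0.67 ± 0.52, edgeR adjusted p = 0.385), and the selection of polyadenylated RNA leaves out most plastid transcripts.

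The genes of the reduction steps fell as well, 4 of 4, by smaller amounts, with a median of -0.57. *PGK1* encodes chloroplast phosphoglycerate kinase, and *GAPA1*, *GAPA2* and *GAPB* encode subunits of the NADP-dependent glyceraldehyde-3-phosphate dehydrogenase. *GAPB* (AT1G42970; chromosome 1, 16127353 to 16129895) had 62.2, 88.6 and 66.7 CPM in *smxl4 smxl5* and 126, 138 and 116 CPM in wild type, a fall of 0.81 ± 0.14 (edgeR adjusted p = 0.00827). *GAPA1* (AT3G26650), the most abundant of the 4 per length, had 352, 397 and 323 CPM against 470.1, 471 and 526 CPM, a fall of 0.45 ± 0.10 (edgeR adjusted p = 0.0185). *PGK1* (AT3G12780) changed least, from 269, 289 and 273 CPM in wild type to 215, 227 and 205 CPM, a fall of 0.36 ± 0.08 (edgeR adjusted p = 0.0158). In all 3 genes the groups did not overlap. *GAPA2* fell by 0.70 ± 0.08 (edgeR adjusted p = 0.00276). When *smxl4 smxl5* replicate 1 or wild-type replicate 2 was left out, *PGK1* (edgeR adjusted p = 0.0567 and 0.0755) and *GAPA1* (0.0624 and 0.0569) were past the threshold no longer, which left 2 of the 4 genes called. *GAPA1* was also not called with a replicate block (edgeR adjusted p = 0.0562).

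The regeneration of the acceptor was less evenly lower: 4 of 9 genes fell and 5 did not pass the threshold. *PRK* (AT1G32060; chromosome 1, 11532199 to 11534639) encodes phosphoribulokinase, which makes the acceptor of CO2. It had 117, 152 and 115 CPM in *smxl4 smxl5* and 225, 247 and 211 CPM in wild type, and its fall of 0.83 ± 0.13 was the deepest of this group (edgeR adjusted p = 0.00578). *HCEF1*, the chloroplast fructose-1,6-bisphosphatase, fell by 0.73 ± 0.13 (edgeR adjusted p = 0.00993), from 74.0 ± 7.18 CPM to 44.8 ± 7.92 CPM. *SBPASE*, the sedoheptulose-1,7-bisphosphatase known from work in several plants as a step that can limit the cycle, fell by 0.64 ± 0.10 (edgeR adjusted p = 0.00670), from 57.7 ± 5.73 CPM to 37.0 ± 3.78 CPM (SD, n = 3 throughout). These 3 enzymes act in one direction under stromal conditions and are activated in light through thioredoxin. *PDTPI*, the plastid triose-phosphate isomerase, fell by 0.27 ± 0.08 (edgeR adjusted p = 0.0491), close to the threshold. It was past the threshold in 2 of 11 alternatives only: in the 6 fits that each left out 1 library, its edgeR adjusted p ran from 0.0692 without *smxl4 smxl5* replicate 2 to 0.140 without *smxl4 smxl5* replicate 1.

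The 5 regeneration genes without a call differed in how the libraries lay. *FBA2* (AT4G38970), a plastid fructose-bisphosphate aldolase and the most abundant gene of the group per length, had 208, 305 and 207 CPM in *smxl4 smxl5* and 325, 350.1 and 315 CPM in wild type. The groups did not overlap, and *smxl4 smxl5* replicate 2 stood near the wild-type values (log2 fold change -0.46 ± 0.16, edgeR adjusted p = 0.0681). Without that library it was -0.68 and past the threshold (edgeR adjusted p = 0.00735). *FBA1*, also a plastid aldolase, had 85.5, 107 and 86.2 CPM against 106, 133 and 127 CPM, with an overlap through the same library (-0.39 ± 0.12, edgeR adjusted p = 0.0533). It was past the threshold in 5 of the 11 alternatives. These included the fits without that library (edgeR adjusted p = 0.0265), without wild-type replicate 1 (0.0490) and with the replicate block (0.0415). The DESeq2 test called both aldolases (DESeq2 adjusted p = 0.0200 for each). *TKL1* (AT3G60750), a transketolase, had 430.5, 438 and 391 CPM against 457, 465 and 419 CPM (-0.09 ± 0.09, edgeR adjusted p = 0.466). *RPE*, ribulose-phosphate epimerase, had 229, 242 and 221 CPM against 249, 248 and 247 CPM (-0.10 ± 0.07, edgeR adjusted p = 0.321). *RPI3*, ribose-5-phosphate isomerase, had 32.0, 31.3 and 33.7 CPM against 34.9, 36.8 and 35.6 CPM (-0.14 ± 0.06, edgeR adjusted p = 0.138). *TKL1*, *RPE* and *RPI3* act in reversible sugar phosphate exchange and were called in 0 of the 11 alternatives.

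**Figure D2:**
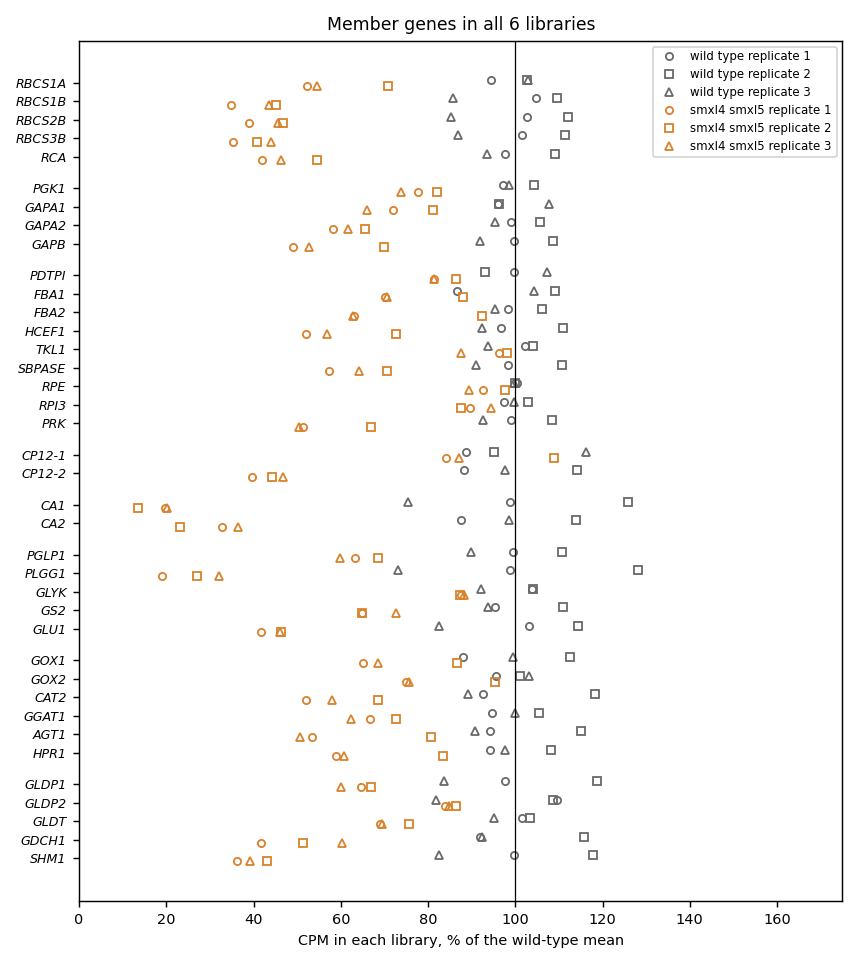
CPM of each of the 38 genes in every library, as a percent of the gene's wild-type mean (vertical line at 100%), with orange symbols for *smxl4 smxl5* and grey for wild type, and a symbol shape for each replicate number. For 34 genes all orange symbols lie left of all grey ones. The exceptions are *FBA1*, *TKL1*, *CP12-1* and *GLDP2*. Within *smxl4 smxl5*, replicate 2 was the highest library for 29 genes.

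CP12 proteins bind phosphoribulokinase and glyceraldehyde-3-phosphate dehydrogenase into an inactive complex in the dark, and the 2 genes measured here differed. *CP12-2* (AT3G62410; chromosome 3, 23090944 to 23091580) had 18.1, 20.2 and 21.3 CPM in *smxl4 smxl5* and 40.3, 52.0 and 44.5 CPM in wild type, a fall of 1.20 ± 0.11 (edgeR adjusted p = 0.00172). *CP12-1* (AT2G47400), the second most abundant member per length in wild type, had 391, 506 and 405 CPM against 412, 442 and 541 CPM. Its groups overlapped (log2 fold change -0.10 ± 0.14, edgeR adjusted p = 0.622), and the estimate was 0.015 without wild-type replicate 3. The log2 ratio of *CP12-2* to *CP12-1* was -4.41 ± 0.20 in *smxl4 smxl5* and -3.33 ± 0.26 in wild type (SD, n = 3), a difference of -1.08 with no overlap (exact permutation p = 0.1, adjusted p = 0.16).

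The carbonic anhydrases, which interconvert CO2 and bicarbonate, showed the deepest falls per role. *CA1* (AT3G01500; chromosome 3, 194426 to 198664), which encodes the main chloroplast form of leaves, had 12.7, 8.65 and 12.9 CPM in *smxl4 smxl5* and 63.7, 81.2 and 48.7 CPM in wild type. The lowest wild-type library was thus far above the highest *smxl4 smxl5* library, and the log2 fold change was -2.49 ± 0.24 (edgeR adjusted p = 0.00276). Of all genes tested, 0.202% had a lower fold change. *CA2* (AT5G14740; chromosome 5, 4757856 to 4762666), described as cytosolic, had 4.55, 3.21 and 5.07 CPM against 12.2, 15.9 and 13.7 CPM, a fall of 1.69 ± 0.18 (edgeR adjusted p = 0.00246). The log2 ratio of *CA1* to *CA2* was 1.32 ± 0.06 in *smxl4 smxl5* and 2.15 ± 0.31 in wild type (SD, n = 3; exact permutation p = 0.1, adjusted p = 0.16). *CA1* shares 343 bases with a neighbour on the same strand, AT3G01510, which had 5.01 ± 0.55 CPM in *smxl4 smxl5* and 6.84 ± 0.78 CPM in wild type.

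In the chloroplast steps of photorespiration 4 of 5 genes fell. *PLGG1* (AT1G32080; chromosome 1, 11537242 to 11539896) encodes the carrier that exports glycolate from the chloroplast and imports glycerate, and it is the next annotated locus but one after *PRK* along chromosome 1. It had 4.07, 5.81 and 6.90 CPM in *smxl4 smxl5* and 21.2, 27.5 and 15.7 CPM in wild type, a fall of 1.94 ± 0.27 (edgeR adjusted p = 0.00622). The groups did not overlap, and after *CA1* this was the second deepest fall of the 38 genes. *GLU1*, the ferredoxin-dependent glutamate synthase that reassimilates photorespiratory ammonia, fell by 1.16 ± 0.12 (edgeR adjusted p = 0.00248). It had 62.6, 69.5 and 69.2 CPM in *smxl4 smxl5* and 155, 172 and 124 CPM in wild type. *GS2* (AT5G35630), the plastid glutamine synthetase that acts just before it and the most abundant gene of this group per length, had 125, 125 and 140 CPM in *smxl4 smxl5*. Wild type had 183, 213 and 180.2 CPM, and the fall was 0.57 ± 0.10 (edgeR adjusted p = 0.00746). *PGLP1*, phosphoglycolate phosphatase, the first enzyme of the route, fell by 0.65 ± 0.10 (edgeR adjusted p = 0.00552), from 87.5 ± 9.16 CPM to 55.8 ± 3.89 CPM. A near copy of it, AT5G36790, matches 98.5% of 1782 aligned bases and had almost the same level (55.7 ± 3.84 CPM in *smxl4 smxl5*, 87.4 ± 9.18 CPM in wild type), so the values of *PGLP1* are uncertain for this locus alone. *GLYK* (AT1G80380), glycerate kinase, which closes the route, had 43.1, 43.0 and 43.5 CPM against 51.1, 51.3 and 45.3 CPM. Its groups did not overlap, and it was not called (-0.19 ± 0.07, edgeR adjusted p = 0.0956) except without wild-type replicate 3 (edgeR adjusted p = 0.0320).

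In the peroxisome 5 of 6 genes fell. *CAT2* (AT4G35090; chromosome 4, 16700312 to 16703504), the catalase known to remove photorespiratory hydrogen peroxide in leaves, had 8.80, 11.6 and 9.81 CPM in *smxl4 smxl5* and 15.6, 20.0 and 15.1 CPM in wild type. Its fall was 0.75 ± 0.14 (edgeR adjusted p = 0.0111). *CAT2* was the second least abundant of the 38 genes per length, and it shares 95 bases with AT4G35080 on the opposite strand, which had a mean of 38.9 CPM. Whether the counting used strand is not given in the sources used here. *GGAT1* (AT1G23310; chromosome 1, 8268385 to 8272021), glutamate:glyoxylate aminotransferase and the most abundant gene of the group per length, had 262, 286 and 245 CPM against 373, 415 and 393 CPM. The groups did not overlap, and the fall was 0.57 ± 0.09 (edgeR adjusted p = 0.00609).

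Glycolate oxidase is encoded by neighbouring genes on chromosome 3, *GOX2* at 4818251 to 4821013 and *GOX1* at 4821391 to 4824178. *GOX1* had 87.9, 117 and 92.6 CPM against 119, 152 and 135 CPM, a fall of 0.45 ± 0.13 (edgeR adjusted p = 0.0456), with *smxl4 smxl5* replicate 2 just under wild-type replicate 1. *GOX2* had 110, 140 and 111 CPM against 140, 148 and 151 CPM, with hardly a gap between the groups (-0.29 ± 0.11, edgeR adjusted p = 0.0870), and was past the threshold without *smxl4 smxl5* replicate 2 (edgeR adjusted p = 0.0191). *AGT1*, serine:glyoxylate aminotransferase, fell by 0.70 ± 0.19 (edgeR adjusted p = 0.0402), and *HPR1*, hydroxypyruvate reductase, by 0.56 ± 0.14 (edgeR adjusted p = 0.0264). The calls of *GOX1*, *AGT1* and *HPR1* were lost without any 1 of 5 libraries, the exception being *smxl4 smxl5* replicate 2. There the edgeR adjusted p ran up to 0.157, 0.127 and 0.0970, each without wild-type replicate 2, and 2 of the 6 peroxisomal genes were called.

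In the mitochondrion 4 of 5 genes fell. The glycine decarboxylase complex and serine hydroxymethyltransferase together convert glycine to serine there, releasing CO2 and ammonia. *SHM1* (AT4G37930; chromosome 4, 17831731 to 17835017), the hydroxymethyltransferase, had 104, 123 and 112 CPM in *smxl4 smxl5* and 285, 338 and 236 CPM in wild type. The groups were far apart, and the fall of 1.34 ± 0.14 was the deepest of this group (edgeR adjusted p = 0.00246). *GDCH1*, the lipoyl-carrying H protein, fell by 0.97 ± 0.15 (edgeR adjusted p = 0.00673), and *GLDT*, the T protein, by 0.49 ± 0.08 (edgeR adjusted p = 0.00647). The P protein, which decarboxylates glycine, is encoded by a pair of genes. *GLDP1* (AT4G33010) had 187, 194 and 174 CPM against 283, 344 and 242 CPM, a fall of 0.65 ± 0.13 (edgeR adjusted p = 0.0129). *GLDP2* (AT2G26080), the more abundant of the pair per length, had 599, 617 and 605 CPM against 783, 776 and 584 CPM. Wild-type replicate 3 lay below all *smxl4 smxl5* libraries (-0.23 ± 0.12, edgeR adjusted p = 0.191), and without it the gene was past the threshold at -0.37 (edgeR adjusted p = 0.0197). The log2 ratio of *GLDP1* to *GLDP2* was -1.71 ± 0.07 in *smxl4 smxl5* and -1.30 ± 0.15 in wild type (SD, n = 3; exact permutation p = 0.1, adjusted p = 0.16).

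Across the 38 genes, wild-type levels per kilobase spanned a factor of 417, from *CA2* to *RBCS1A*. The fold change followed the level weakly (Spearman's rho 0.218 over 38 genes of the same 6 libraries). The libraries of a group differed for most genes together: *smxl4 smxl5* replicate 2 was the highest of its group for 29 genes, wild-type replicate 2 was the highest of its group for 31, and wild-type replicate 3 was the lowest for 24. The median deviation from the group mean was 0.10 on the log2 scale in *smxl4 smxl5* replicate 2 and 0.13 in wild-type replicate 2, less than the median fold change. Leaving out 1 library at a time gave between 23 and 31 genes called lower, with 23 without *smxl4 smxl5* replicate 1 (where 7.28% of all genes were called lower) and 23 without wild-type replicate 2 (6.37%). Of the 29 genes called lower, 23 were called in all 11 alternatives, among them every gene named for Rubisco, CP12 and the carbonic anhydrases that was called.

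Relatives of these enzymes outside the 38 genes, most of them in other compartments, were set beside them in 19 pairs. The ratio of the member to its relative was lower in *smxl4 smxl5* in 17 of the 19 pairs, and in 11 of these the groups did not overlap. All 38 members had fold changes below 0, so a lower ratio follows wherever the relative fell less. These counts therefore restate the falls of the members and are no separate support for them. How often the ratios of other gene pairs lie apart in this way was not counted. *TKL1* to *TKL2* was the 1 pair whose ratio was higher with no overlap. No pair could pass 0.05, since the smallest exact permutation p is 0.1, and the lowest adjusted p was 0.158. The largest differences in log2 ratio were -2.29 for *CA1* to *CA4*, -2.10 for *GOX1* to *GOX3* and -1.60 for *GLU1* to *GLT1*. *CA4* had 86.0, 91.4 and 136 CPM in *smxl4 smxl5* and 116, 114 and 110 CPM in wild type, with overlapping groups (-0.12 ± 0.17, edgeR adjusted p = 0.632). With *smxl4 smxl5* replicate 3, its highest library, left out, *CA4* was called lower at -0.35 (edgeR adjusted p = 0.0192). *SHM2*, the other mitochondrial hydroxymethyltransferase, had 117, 99.0 and 117 CPM against 122, 137 and 126 CPM (-0.21 ± 0.09, edgeR adjusted p = 0.132), and the log2 ratio of *SHM1* to it differed by -1.11 (exact permutation p = 0.1, adjusted p = 0.158).

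**Figure D3:**
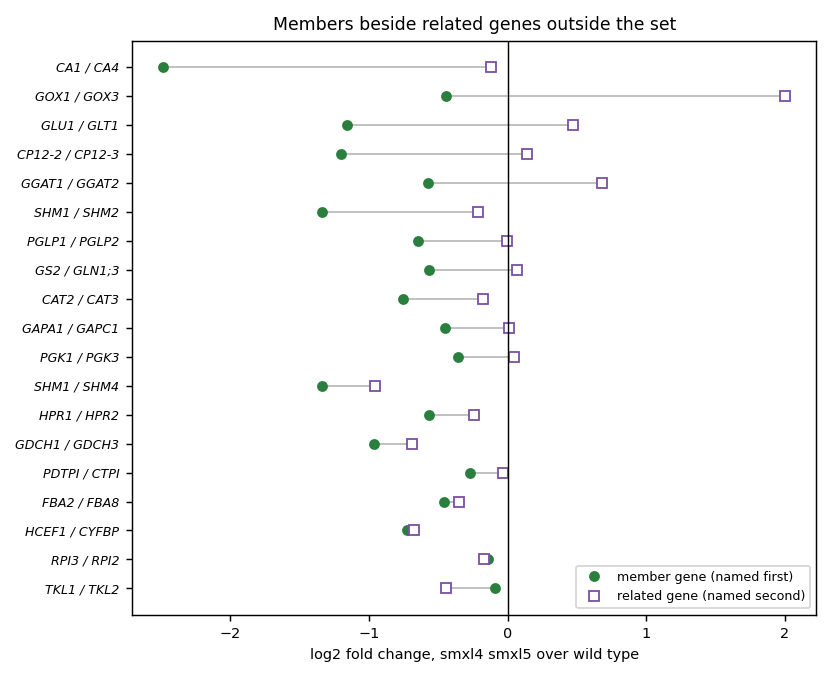
Log2 fold changes of each member (filled green circle) and of a related gene outside the 38 (open square), joined by a line, for 19 pairs ordered by the difference of their log2 ratio between genotypes. The largest gaps are those of *CA1* and *CA4* and of *GOX1* and *GOX3*, and the last pair, *TKL1* and *TKL2*, runs the other way.

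Some of these relatives rose. *CA3*, another carbonic anhydrase, had 8.11, 7.48 and 10.7 CPM in *smxl4 smxl5* and 1.76, 1.66 and 3.19 CPM in wild type, a rise of 1.98 ± 0.28 on the log2 scale with no overlap (edgeR adjusted p = 0.00523). *GOX3*, a glycolate oxidase family member, had 7.39, 3.21 and 6.68 CPM against 1.28, 0.976 and 2.06 CPM, a rise of 2.00 ± 0.39 (edgeR adjusted p = 0.0142). It was not called without wild-type replicate 1 (edgeR adjusted p = 0.0643) or wild-type replicate 2 (0.0541). Among the 5 other carbonic anhydrases 1 rose and 1 fell, where 11.2% of all genes tested were called higher and 13.7% lower. *CA5* fell by 0.28 (edgeR adjusted p = 0.0359), a call lost with the replicate block and without 4 of the 6 libraries (up to 0.139 without wild-type replicate 2).

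Among 22 further genes of photorespiration, isoforms and transporters included, 5 fell and 4 rose, with a median of -0.15. Beside them, 13.7% of all genes tested were called lower and 11.2% higher. *PMDH2*, a peroxisomal malate dehydrogenase, fell by 0.96 ± 0.16, from 84.4, 105 and 80.3 CPM in wild type to 41.0, 57.0 and 41.2 CPM (edgeR adjusted p = 0.00816), while its partner *PMDH1* rose by 0.39 ± 0.07 (edgeR adjusted p = 0.00792). The other genes that rose were *GGAT2*, by 0.68, and *GLT1*, the NADH-dependent glutamate synthase, by 0.47 (edgeR adjusted p = 0.0277 and 0.0496). Neither call was firm. *GLT1* lost it with DESeq2 size factors (0.0519), with the replicate block (0.0506) and without any 1 of 5 libraries, the exception being *smxl4 smxl5* replicate 3 (up to 0.157 without wild-type replicate 2). *GGAT2* lost it with the replicate block (0.0635) and when replicate 1 of *smxl4 smxl5* (0.0598) or of wild type (0.0988) or wild-type replicate 2 (0.102) was left out. These counts moved with the libraries, to 3 lower and 1 higher when wild-type replicate 1 or 2 was left out, to 3 and 2 without *smxl4 smxl5* replicate 1 and to 3 and 3 without *smxl4 smxl5* replicate 2. With the replicate block they were 4 and 2. Calls over all genes became fewer in these fits too. They were 7.51% lower and 4.28% higher without wild-type replicate 1, and 6.37% and 2.91% without wild-type replicate 2. The replicate block gave 9.86% and 6.68%.

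Of 6 other plastid Calvin cycle genes 1 fell, *TKL2*, by 0.45 ± 0.09 (edgeR adjusted p = 0.0144, but 0.0510 and 0.0586 when wild-type replicate 1 or 2 was left out), and their median was -0.04. Of 9 genes for Rubisco folding and assembly 3 fell and 1 rose, where 13.7% of all genes tested were called lower and 11.2% higher. *RBCX1*, a Rubisco chaperone, fell by 1.09 ± 0.32 and sat at the threshold (edgeR adjusted p = 0.0493, but 0.0505 with DESeq2 size factors and up to 0.143, without *smxl4 smxl5* replicate 1, in 4 of the 6 fits that left out a library). *CPN60A1*, a subunit of the plastid chaperonin, rose by 0.40 ± 0.09 (edgeR adjusted p = 0.0150). The lower genes of this list numbered 0 without *smxl4 smxl5* replicate 1, where 7.28% of all genes were called lower, and 0 without wild-type replicate 2 (6.37%). *CPN60A1* was not called without wild-type replicate 1 (edgeR adjusted p = 0.0512) or 2 (0.0734).

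The 22 genes for cytosolic and glycolytic counterparts had a median of 0.00, with 6 lower and 2 higher. Of all genes tested, 13.7% were called lower and 11.2% higher. The cytosolic *GAPC1* had 612, 486 and 524 CPM in *smxl4 smxl5* and 520, 549 and 544 CPM in wild type (log2 fold change 0.01 ± 0.10, edgeR adjusted p = 0.960). *NP-GAPDH*, the non-phosphorylating dehydrogenase, fell by 1.03 ± 0.16 (edgeR adjusted p = 0.00578), from 444, 479 and 427 CPM in wild type to 179, 275 and 206 CPM, and *SHM4* by 0.96 ± 0.11 (edgeR adjusted p = 0.00276). Without wild-type replicate 2 this list held 3 lower genes and 0 higher, where 6.37% of all genes were called lower and 2.91% higher.

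**Figure D4:**
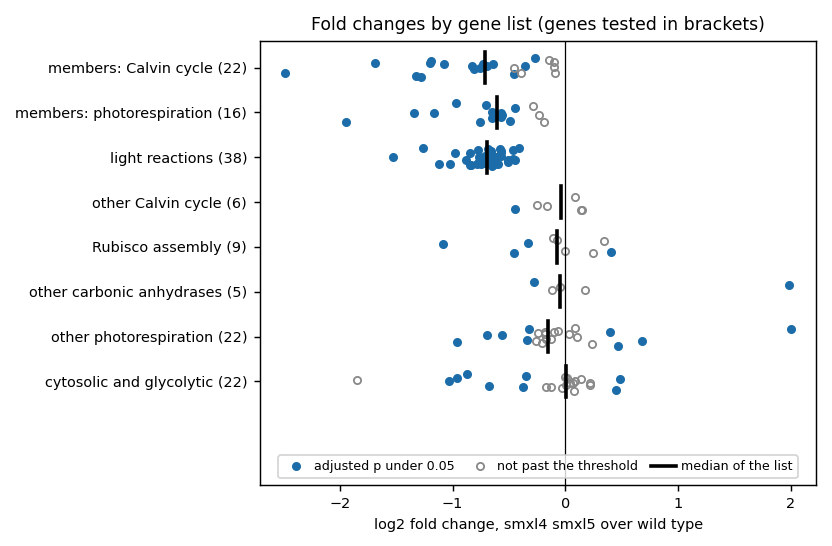
Log2 fold changes of the member genes and of 6 other lists, 1 point a gene, filled where the adjusted p was under 0.05 in edgeR's test, with a black bar at the list's median and the number of genes tested in brackets. The medians of the member genes (-0.71 and -0.61) and of the light reactions (-0.70) lie left of those of the other 5 lists (-0.15 to 0.00).

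The nuclear genes of the light reactions, which supply the cycle with ATP and NADPH, were close to the members in size: all 38 of a list of 38 fell, with a median of -0.70 against -0.65 for the 38 member genes. The deepest falls there were 1.53 ± 0.33 in *LHCB2.3* and 1.27 ± 0.13 in *PSBS* (edgeR adjusted p = 0.0244 and 0.00207). *LHCB2.3* lost its call without *smxl4 smxl5* replicate 2 (0.0624) and without wild-type replicate 1 (0.0818) or 2 (0.0834). Of 4 tested regulators of chloroplast genes, *HY5* was called lower (-0.45 ± 0.12, edgeR adjusted p = 0.0330) and lost the call with the replicate block and without 5 of the 6 libraries, as high as 0.107 without *smxl4 smxl5* replicate 1. *GLK1*, known to activate photosynthesis genes, had 19.6, 19.3 and 29.8 CPM against 38.0, 40.4 and 27.6 CPM. Its groups overlapped through replicate 3 of each, and it was not called by edgeR (-0.62 ± 0.22, adjusted p = 0.0834) but by DESeq2 (adjusted p = 0.0140). With replicate 3 of *smxl4 smxl5* or of wild type left out, edgeR called it (adjusted p = 0.0134 and 0.0459). *GLK2* was more abundant, at 84.4, 97.9 and 85.0 CPM against 84.7, 88.4 and 88.2 CPM. Its groups overlapped and it was not called (0.03 ± 0.08, edgeR adjusted p = 0.798). *GNC* was not called either (-0.43 ± 0.41, edgeR adjusted p = 0.465).

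Markers of stem tissues were read in the same comparison, where 13.7% of all genes tested were called lower and 11.2% higher. The 5 phloem markers all fell, their sum being 237 to 255 CPM in *smxl4 smxl5* and 435 to 474 CPM in wild type. So did the 5 xylem markers, 2500 to 3101 CPM against 4010 to 5003 CPM. Of the xylem markers 3 of 5 were called without *smxl4 smxl5* replicate 1 (7.28% of all genes lower). The same number was called without wild-type replicate 1 (7.51%) or 2 (6.37%). Of the phloem markers *SEOR1* of sieve elements fell by 1.43 and the phloem regulator *APL* by 0.95. Of the xylem markers the laccase *LAC4* fell by 0.84 and the protease *XCP2* by 0.83. Of 7 epidermis markers 2 fell, the wax genes *CER1* (log2 fold change -1.90) and *CER3* (-1.09). The summed level of the 7 was 407 to 520 CPM against 527 to 763 CPM. Without *smxl4 smxl5* replicate 3 (15.3% of all genes lower) 4 fell, as they did without wild-type replicate 3 (13.3%). Of 5 guard cell markers *KAT1* fell by 2.44 and *FAMA* rose by 1.43, the sum being 26.1 to 29.8 CPM against 33.7 to 37.5 CPM. The defining marker *MYB60* of guard cells was below 1 CPM in all 6 libraries. Senescence markers summed to 19.2 to 28.6 CPM against 25.1 to 30.5 CPM, overlapping ranges, with 2 of 5 lower (*SGR1* and *SAG12*). *SGR1* was not called without *smxl4 smxl5* replicate 1 (edgeR adjusted p = 0.0576), and *SAG12*, below 1 CPM in all libraries, lost its call without any 1 of 5 libraries (up to 0.134 without wild-type replicate 2). Markers of root endodermis summed to at most 1.22 CPM, with *CASP5* at 0 in all libraries. What part these tissue differences have in the lower levels of the 38 genes was not tested.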

How the data were processed

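RNA of 3 stem base pools per genotype was measured by sequencing, and each library is 1 biological replicate per the labels' protocols, although the description of each wild-type library gives replicate 1. The table deposited by the authors holds unnormalized read counts, 1 column a library and 1 row a locus. The submitters' processing notes name TAIR10 as the build and, without their roles, TopHat2 2.0.14, FastQC 0.11.7 and DESeq2. How reads were counted, and whether strand was used, is not given in the sources used here. Per the labels' protocols, libraries were directional, were made from polyadenylated RNA and were amplified by 12 cycles of PCR. The authors' deposited comparison table was not used.

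The counts were fitted with edgeR 4.0.16 in R 4.3.3 (filterByExpr with minimum count 10 and minimum total 15, TMM factors, robust quasi-likelihood F test of genotype, two-sided, Benjamini-Hochberg adjustment over all 20296 genes tested). Standard errors were obtained by dividing a fold change by the root of its F value. CPM uses the TMM-scaled totals, and values per kilobase use the union of exons in the RefSeq annotation of TAIR10.1, which also gave coordinates and upstream sequence. Gene starts are the outermost annotated ones. Ratios of related genes used log2 of CPM plus 0.5 and all 20 regroupings of 3 libraries against 3. Near copies were searched with BLAST 2.17.0 (at least 90% identity over at least 100 bases). On simulated counts with known changes, the test recovered 28 of 100 genes at a log2 change of 0.5 and 93 of 100 at 1, with 7 false calls among 20268 genes.

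The members and lists were chosen with earlier results of these data known. Values in every library are given for the members with the largest and smallest fold change and the highest level per kilobase of each role, for each member not called and for members of the pairs described. From each other list the called genes with the 2 largest fold changes are named. A gene that this rule takes from the Rubisco assembly list is not reported here. Other genes named were chosen after their values were seen. Alternatives were other scaling factors, no filter, DESeq2 1.42.0, a replicate block and leaving out each library. No library repeats another: chi-square per gene between libraries of a group was 12.2 to 36.4, far above sampling noise. The p-values measure the spread between pools of 3 stem fragments.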

Additional observations from a re-analysis of the deposited data

How the results depend on the processing

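Over the 11 alternatives 23 to 31 of the 38 genes were called lower and 0 higher, and the median log2 fold change ran from -0.74 to -0.57. DESeq2's test called 31 lower (14.7% of all genes), upper-quartile factors 27 and the replicate block 28 (9.86% of all genes). The call was lost in at least 1 alternative for 6 of the 29 genes (*PGK1*, *GAPA1*, *PDTPI*, *GOX1*, *AGT1* and *HPR1*), and 5 of the 9 uncalled genes were called in at least 1. The only fold change of the 38 to change sign was that of *CP12-1*, at 0.015 without wild-type replicate 3, within a range of -0.24 to 0.015 over the fits without 1 library.

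Over all genes, the replicate block gave 3356 calls, 1355 of them higher. Leaving out 1 library gave 1902 to 5558 calls, 1305 to 3135 lower and 597 to 2423 higher, the fewest without wild-type replicate 2 and the most without *smxl4 smxl5* replicate 3. Same-numbered libraries hardly deviated together (r = 0.031, 0.073 and -0.019 across all genes), so the numbers were not taken as pairs. Among the 38 genes, replicate 2 was the highest library for most in both groups (29 and 31). The lowest was most often replicate 1 in *smxl4 smxl5* (23 genes) and replicate 3 in wild type (24). The cause of the changes in the number of calls was not tested. Of the 27 ratios of related genes, 24 kept their direction with a pseudocount of 0.1 and without each library, and 3 close to 0 did not (*FBA2* to *FBA8*, *HCEF1* to *CYFBP* and *RPI3* to *RPI2*). With 3 libraries a group and a median SE of 0.12 over the 38 genes, falls as small as those of *TKL1*, *RPE* and *CP12-1* were not detectable.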
